A study of Mus musculus with 16 samples.

Results

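The genes described here copy the genome: 37 genes for the licensing of replication origins, the replicative helicase, the DNA polymerases, nucleotide supply and the copying of chromatin in S phase. They were chosen by symbol from textbook roles, with earlier results of these data known. All 37 were found among the 23224 rows of the deposited table of estimated counts. RNA was sequenced from 16 mouse small cell lung cancers, a neuroendocrine lung tumor. In all mice tumor formation had been started by deletion of Trp53 and Rb1 (genotype Trp53-/-; Rb1-/-) on a mixed C57BL/6;129/Sv background. In 8 tumors p107 (gene Rbl1) had been mutated with CRISPR, and in the other 8 p130 (gene Rbl2). Tumor names such as sgp107_6627T2 were read as guide target, mouse and tumor number, so that the p107 tumors came from 4 mice and the p130 tumors from 3, with 2 or 3 tumors a mouse. Treatment, age, the promoter that drove Cre and the share of cells with a mutated allele were not given in the sources used here. No tumor without a p107 or p130 mutation was part of the comparison, so neither group is an unmutated baseline.

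DNA replication is prepared in G1, when the origin recognition complex, Cdc6 and Cdt1 load the ring-shaped MCM helicase onto DNA. In S phase Cdc45 and the GINS complex switch the helicase on, and polymerases, clamp and clamp loader copy the strands. Most of these genes are textbook targets of E2F transcription factors, which the retinoblastoma protein and its relatives p107 and p130 hold in check. Small cell lung cancer typically lacks the retinoblastoma protein and divides fast.

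Promoter letters were looked up first, since E2F control is the textbook link between these genes and the mutated proteins. RefSeq promoter windows (build GRCm38.p6, 250 bases before to 50 after a gene's start) were at hand for 33 of the 37 genes, in 40 windows. The missing ones are Pole, Gins1, Gins2 and Mcm4. E2F-type letters were TTTGGCG or TTTCCCG or TTTGCCG or TTTCGCG on either strand, whose matches may overlap each other. They stood in the windows of 18 of the 33 genes (54.5%), against 12.3% of the 10471 tested genes with a window. In a list of other replication genes, described near the end, 17 of the 41 with a window (41.5%) held them too. The stretches below are the 200 bases before the start for 6 genes that hold such letters and are described later, and for Cdc45, whose window holds none. Capitals mark the E2F-type letters, and each stretch is read 5′ to 3′ on the gene's strand. Orc1 lies at chr4:108579254-108579453 (+), Mcm5 at chr8:75109309-75109508 (+) and Mcm6 at chr1:128359706-128359905 (-). Rfc3 lies at chr5:151651209-151651408 (-), Chaf1a at chr17:56040216-56040415 (+), Uhrf1 at chr17:56304113-56304312 (+) and Cdc45 at chr16:18811973-18812172 (-).
Orc1: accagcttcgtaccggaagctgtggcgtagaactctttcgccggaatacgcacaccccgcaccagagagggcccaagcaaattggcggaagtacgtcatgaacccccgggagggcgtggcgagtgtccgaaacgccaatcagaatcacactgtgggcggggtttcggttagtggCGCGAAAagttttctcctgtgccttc
Mcm5: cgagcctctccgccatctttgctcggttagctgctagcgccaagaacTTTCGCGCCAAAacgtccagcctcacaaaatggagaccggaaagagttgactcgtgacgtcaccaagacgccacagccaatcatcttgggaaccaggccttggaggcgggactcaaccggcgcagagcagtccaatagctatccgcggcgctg
Mcm6: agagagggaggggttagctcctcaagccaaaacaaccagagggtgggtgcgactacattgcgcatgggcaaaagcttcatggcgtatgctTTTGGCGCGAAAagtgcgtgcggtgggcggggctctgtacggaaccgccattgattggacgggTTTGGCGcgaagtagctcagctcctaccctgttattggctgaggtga
Rfc3: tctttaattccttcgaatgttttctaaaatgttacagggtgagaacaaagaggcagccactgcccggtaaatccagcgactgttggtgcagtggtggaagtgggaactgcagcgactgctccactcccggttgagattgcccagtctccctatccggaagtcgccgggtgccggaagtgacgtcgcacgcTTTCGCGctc
Chaf1a: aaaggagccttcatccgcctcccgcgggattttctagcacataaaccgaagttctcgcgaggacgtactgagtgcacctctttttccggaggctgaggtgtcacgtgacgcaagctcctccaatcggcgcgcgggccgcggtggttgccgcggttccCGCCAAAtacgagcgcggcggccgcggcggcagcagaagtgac
Uhrf1: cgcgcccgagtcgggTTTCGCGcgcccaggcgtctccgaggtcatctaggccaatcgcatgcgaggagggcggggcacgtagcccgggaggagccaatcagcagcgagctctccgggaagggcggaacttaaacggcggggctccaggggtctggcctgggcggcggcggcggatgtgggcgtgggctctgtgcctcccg
Cdc45: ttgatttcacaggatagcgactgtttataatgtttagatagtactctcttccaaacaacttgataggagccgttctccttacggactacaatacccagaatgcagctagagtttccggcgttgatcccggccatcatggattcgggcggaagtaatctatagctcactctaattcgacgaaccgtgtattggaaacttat

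In Mcm6 the 3 matches included a pair that share bases, and in Mcm5 the 2 matches shared bases as well. Rfc3 has another match just after its start, outside the stretch shown, and the Uhrf1 stretch is from 1 of its 2 windows. The second motif looked for was TTTGAA or TTCGAA on either strand, the letters of the CHR element known from mitosis promoters. It stood in the windows of 6 of the 33 replication genes (18.2%) and of 16.1% of tested genes. Among 34 mitosis genes listed for comparison, 29 had a window, of which 21 (72.4%) held the CHR-type letters and 5 (17.2%) the E2F-type letters. CCAAT boxes (CCAAT, either strand) stood in the windows of 63.6% of the replication genes and 42.7% of tested genes. They stood in 75.9% of the mitosis genes and 51.2% of the other replication genes. GC boxes (GGGCGG, either strand) stood in the windows of 75.8% of the replication genes and 67.1% of tested genes. Among the mitosis genes the share was 86.2%, and among the other replication genes 80.5%. A match is a run of letters, and no match in this window says nothing of a factor elsewhere.

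Levels are CPM, estimated counts over library size with TMM factors. They are compared between tumors but not between genes, since they are not divided by length. Depth ranged over 13300223 to 34620979 estimated counts among p107 tumors and 12700334 to 21254514 among p130 tumors. All 37 genes passed the filter on low counts, and the lowest count of any of them in any tumor was 105. Their share of a tumor's counts was 0.470% to 0.798% for p107 and 0.459% to 0.636% for p130. Rbl2 had 55.4 CPM at the lowest, 83.1 at the median and 128 at the highest in p107 tumors, against 15.6, 27.5 and 54.4 CPM in p130 tumors. This 2.82-fold difference did not pass the edgeR test over all genes (adjusted p = 0.1001), and passed in DESeq2 (adjusted p = 7.23e-05). Rbl1 had 64.3, 91.3 and 247 CPM in p107 tumors, against 60.6, 81.4 and 121 CPM in p130 tumors (log2 fold change 0.51 ± 0.26 SE, edgeR adjusted p = 0.464). For Rbl2 the lowest p107 tumor lay above the highest p130 tumor, and 0.141% of tested genes had groups without overlap. An exact permutation test for Rbl2 gave p = 0.000155 over tumors (adjusted over all genes 0.110) and 0.0286 over mice. Whether the edit caused this difference was not tested. Small CRISPR edits can leave transcript levels as they are, so overlapping levels, as for Rbl1, do not check a label. Y-linked transcripts were present in all 8 p107 tumors and in 2 p130 tumors, of 1 mouse, so sex and mutated gene are largely confounded.

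None of the 37 genes passed the edgeR test between p107 and p130 tumors (Benjamini-Hochberg adjusted p under 0.05 over 14857 genes), where 0.0269% of all tested genes did. At an unadjusted p under 0.05 there were 3 (8.11%), namely Orc1 and Mcm5, lower in p107 tumors, and Cdc45, higher. Of all tested genes 11.8% had such a p, 6.21% higher and 5.61% lower in p107 tumors, so the share among the replication genes was not above that of all genes. DESeq2, which called 1.93% of the genes it adjusted, called 0 of the 37. It gave the same 3 an unadjusted p under 0.05 (8.11%, against 11.6% of all genes). edgeR on summed counts of each mouse and voom with a random mouse term also called 0 of the 37. Each gave Orc1 and Mcm5 an unadjusted p under 0.05 (5.41%). Of all genes 6.23% had such a p with summed counts and 6.27% in voom, so these shares were not above those of all genes either. The log2 fold change (p107 minus p130) was above 0 for 26 of the 37 genes and for 50% of all tested genes. It ran between -0.56 and 0.32, with a median of 0.06 for the replication genes and 4.1e-05 for all genes. Its median size was 0.13 for the replication genes and 0.20 for all genes. The count of 26 rests on mouse sgp107_6627: without its 2 tumors 16 of the 37 lay above 0 and the median was -0.06. Without sgp107_6627T2 alone the count was 18 and the median -0.02. The groups did not overlap for 0 of the 37 genes and for 0.141% of tested genes.

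**Figure D1:**
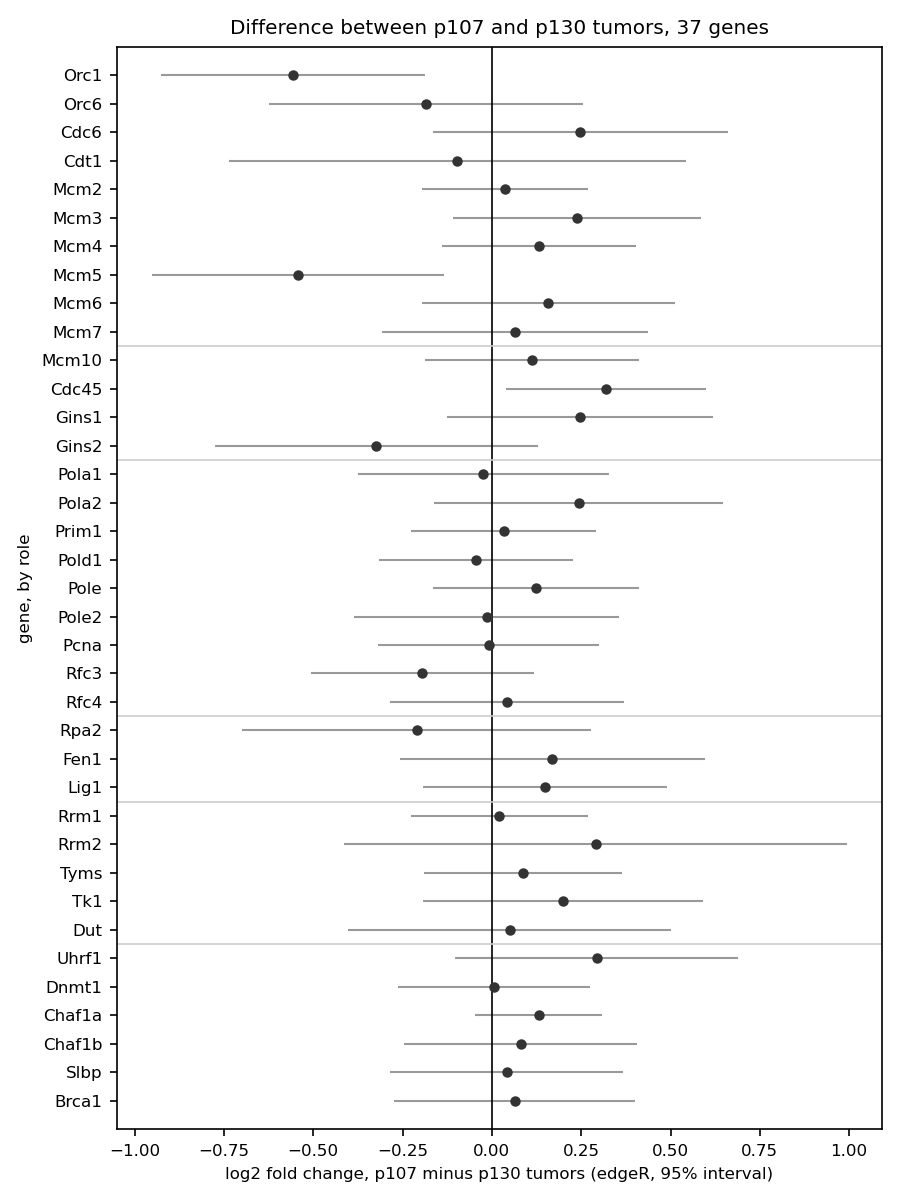
Log2 fold change of each of the 37 genes (p107 minus p130 tumors, edgeR, x axis) with its 95% interval, by role down the page. The intervals of Orc1, Mcm5 and Cdc45 do not reach 0, and the other 34 do; with adjustment over all genes none of the 37 passed.

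Of the 10 genes for licensing and helicase loading, 6 lay above 0 and 4 below, and 0 passed. Orc1 encodes the largest subunit of the origin recognition complex. Its level was 5.02 CPM at the lowest, 7.65 at the median and 9.38 at the highest in p107 tumors, against 8.17, 10.6 and 15.9 CPM in p130 tumors. Only 2 p107 tumors, both of mouse sgp107_6629, reached the p130 range. On the log2 scale the difference was -0.56 ± 0.17 SE (95% interval -0.93 to -0.19, edgeR adjusted p = 0.249, DESeq2 adjusted p = 0.0501). The exact permutation test over all ways to divide the 16 tumors gave p = 0.00186, adjusted over all genes 0.188. Here and below, the test over tumors treats tumors of 1 mouse as independent, which they are not. The exact permutation test over the 35 ways to divide the 7 mice gave p = 0.0571, where the smallest possible is 0.0286. In the 10 tumors with Y-linked transcripts, 8 p107 and 2 p130 of 1 mouse, the log2 fold change was -0.67 ± 0.24 SE (edgeR adjusted p = 0.655). On the opposite strand an exon of Gm12743 overlaps Orc1, and the strand setting of the counts was not given in the sources used here.

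Mcm5 is a subunit of the MCM2 to MCM7 helicase ring. It had 80.5 CPM at the lowest, 153 at the median and 211 at the highest in p107 tumors, against 167, 203 and 289 CPM in p130 tumors. Of the p107 tumors only sgp107_6627T2 (199 CPM) and sgp107_6629T2 (211 CPM) reached the p130 range. The log2 difference was -0.54 ± 0.19 SE (95% interval -0.95 to -0.13, edgeR adjusted p = 0.288). The exact permutation p for this difference was 0.00653 over tumors (adjusted over all genes 0.255) and 0.0571 over mice. Among tumors with Y-linked transcripts it was -0.66 ± 0.36 SE (edgeR unadjusted p = 0.0941, adjusted p = 0.834). The p130 tumors of that subset came from 1 mouse, sgp130_6697. The other 5 ring subunits lay between 0.04 (Mcm2) and 0.24 (Mcm3), with adjusted p at or above 0.593 in edgeR. Mcm2 was among the steadiest, at 338 ± 37.9 CPM (SD, n = 8) in p107 tumors and 329 ± 47.7 CPM (SD, n = 8) in p130 tumors.

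The MCM ring holds each subunit once, so Mcm5 was set against the other 5 ring genes within each tumor; this ratio was chosen after the values were seen and has no test. The log2 of Mcm5 minus the mean log2 of Mcm2, Mcm3, Mcm4, Mcm6 and Mcm7 was -1.63 at the lowest, -0.91 at the median and -0.51 at the highest in p107 tumors. In p130 tumors it was -0.61, -0.39 and 0.28. Only the p107 tumor sgp107_6629T2 lay within the p130 range. The highest value, 0.28, came from sgp130_6638T3, where Mcm3 (102 CPM) and Mcm6 (168 CPM) were at their lowest and Mcm5 (203 CPM) was at its group's median. The Mcm genes other than Mcm5 varied together over the 16 tumors (median Pearson r 0.62 over 10 pairs, up to 0.95 for Mcm3 with Mcm6). With Mcm5 included the median over 15 pairs was 0.34. The points of each r are tumors that partly share a mouse, and the genes share libraries and scaling.

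**Figure D2:**
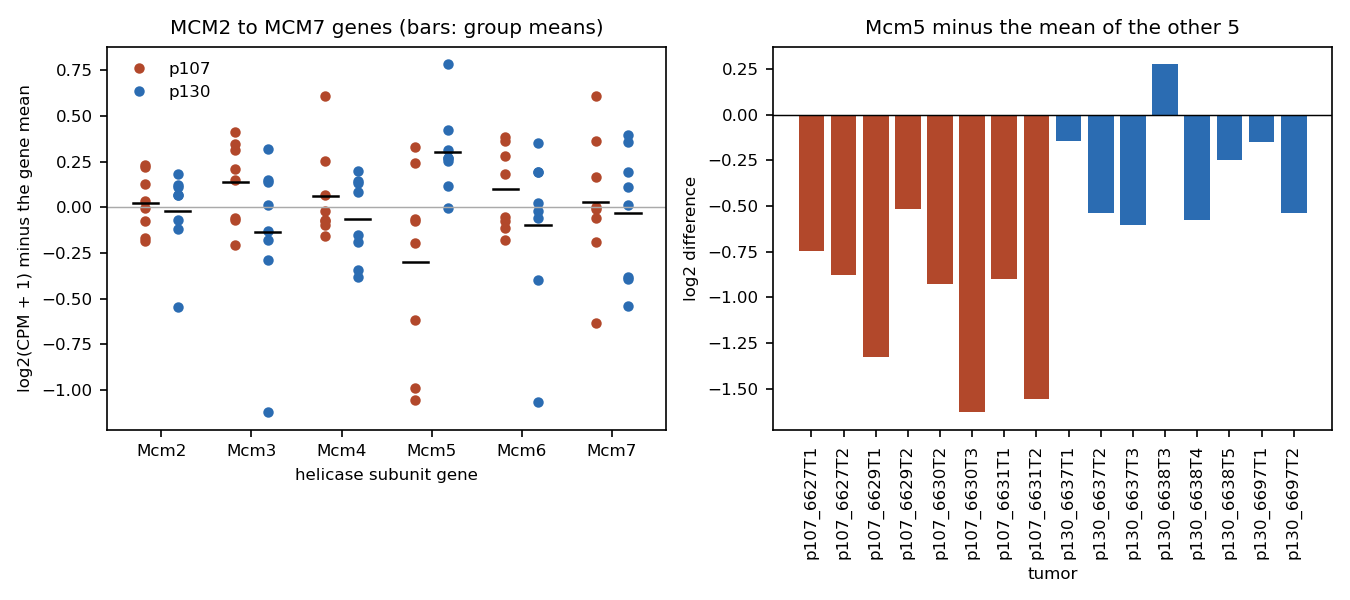
Left, the 6 MCM ring genes in each tumor as log2(CPM + 1) minus the gene's mean over 16 tumors (points, p107 left of p130, bars for group means). Right, log2 of Mcm5 minus the mean of the other 5 in each tumor; 7 of 8 p107 tumors lie below the lowest p130 tumor at -0.61.

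Among the other licensing genes, Cdc6, which helps load the helicase, had 56.5, 72.1 and 125 CPM in p107 tumors (lowest, median, highest), against 39.0, 68.7 and 99.1 CPM in p130 tumors. Its log2 fold change was 0.25 ± 0.20 SE (edgeR adjusted p = 0.643). Cdt1, its partner in loading, had 29.0, 55.7 and 124 CPM in p107 tumors, against 40.2, 70.5 and 109 CPM in p130 tumors (log2 fold change -0.10 ± 0.30 SE, edgeR adjusted p = 0.931). Orc6, the smallest subunit of the origin recognition complex, lay at -0.18 ± 0.21 SE on the same scale (edgeR adjusted p = 0.762). For Cdc6 1 p107 tumor lay above every p130 tumor and 3 p130 tumors below every p107 tumor, and for all 3 genes the groups overlapped.

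Of the 4 origin firing genes, 3 lay above 0 and Gins2 below. Cdc45, the helicase activator, had 47.8, 54.7 and 91.9 CPM in p107 tumors (lowest, median, highest), against 42.6, 48.3 and 56.4 CPM in p130 tumors. The highest p107 tumor, sgp107_6627T2, stood above the next, at 71.7 CPM, and 5 of the 8 p107 tumors lay within the p130 range. The log2 difference was 0.32 ± 0.13 SE (95% interval 0.04 to 0.60, edgeR adjusted p = 0.357). The exact permutation p was 0.0190 over tumors (adjusted over all genes 0.347) and 0.0571 over mice. With counts summed per mouse the unadjusted p of Cdc45 was 0.0515 (edgeR), and with a random mouse term 0.0761 (voom). Its unadjusted p in edgeR was no longer under 0.05 without sgp107_6627T2, sgp107_6631T1, sgp130_6638T3 or sgp130_6697T1, each left out alone. Gins1 and Gins2 encode subunits of the same GINS complex. Gins2 had 12.6, 19.6 and 26.0 CPM in p107 tumors, against 9.76, 25.2 and 35.9 CPM in p130 tumors. The difference was -0.32 ± 0.21 SE on the log2 scale (edgeR adjusted p = 0.574). Gins1 lay at 0.25 ± 0.18 SE (edgeR adjusted p = 0.607). Over the 16 tumors the pair had a Pearson r of -0.11. Mcm10, which helps turn the loaded helicase on, lay at 0.11 ± 0.14 SE (edgeR adjusted p = 0.790).

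**Figure D3:**
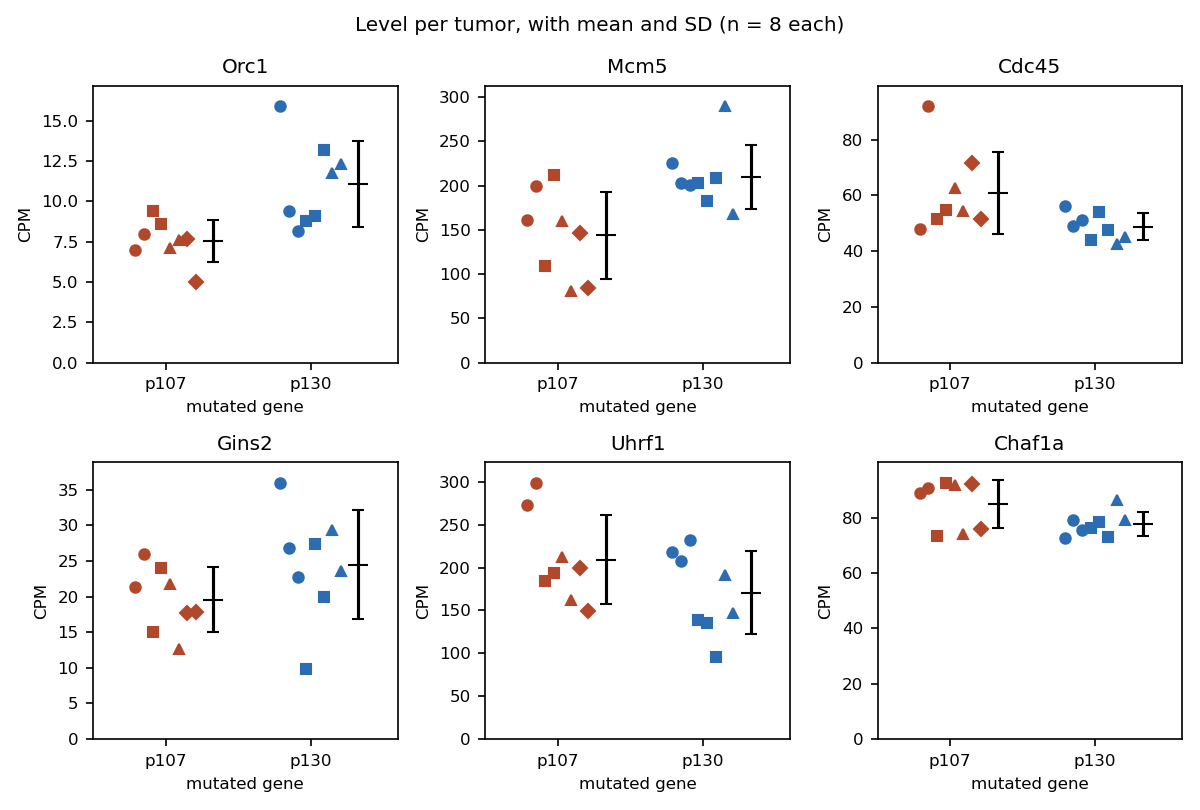
Level in CPM of 6 genes in each tumor, p107 left of p130, with the mean and SD of each group (n = 8 each) and marker shapes for mice within a group. Orc1, Mcm5 and Gins2 have lower means in p107 tumors, Cdc45, Uhrf1 and Chaf1a higher ones, and in all 6 genes the groups overlap.

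Of the 9 genes for polymerases, clamp and clamp loader, 4 lay above 0 and 5 below, with log2 fold changes from -0.19 (Rfc3) to 0.24 (Pola2). Rfc3, a subunit of the complex that loads the clamp, had 54.2, 69.4 and 86.4 CPM in p107 tumors (lowest, median, highest), against 55.9, 78.3 and 120.3 CPM in p130 tumors. These overlapping ranges gave a log2 difference of -0.19 ± 0.15 SE (edgeR adjusted p = 0.628). Its sign rested on mouse sgp130_6637, which held the highest tumor: without it the value was 0.0025. Pcna, the sliding clamp, had 493, 623 and 934 CPM in p107 tumors, against 530, 661 and 850 CPM in p130 tumors. Its log2 fold change of -0.01 had a 95% interval from -0.32 to 0.30. For Pola1, Pold1 and Pole2, polymerase genes, the log2 fold changes were -0.02, -0.04 and -0.01. Prim1, the primase that starts each new strand, lay at 0.03, Rfc4 at 0.04 and Pole at 0.12.

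Among the 3 genes for strand binding, flap removal and ligation, none had an unadjusted p under 0.05 in edgeR. Lig1, the ligase that joins Okazaki fragments, had 186, 228 and 325 CPM in p107 tumors (lowest, median, highest), against 114, 229 and 260 CPM in p130 tumors. The ranges overlapped in part: 2 p107 tumors lay above every p130 tumor, and 2 p130 tumors below every p107 tumor. Its log2 fold change was 0.15 ± 0.16 SE (edgeR adjusted p = 0.752). Fen1, the flap endonuclease, lay at 0.17 ± 0.20 SE (edgeR adjusted p = 0.776), and Rpa2, a subunit of the single-strand binding protein, at -0.21 ± 0.23 SE (edgeR adjusted p = 0.754).

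All 5 nucleotide supply genes lay above 0, and none passed. That count rests on mouse sgp107_6627: without it only Tyms lay above 0, at 0.08. Rrm2, the small subunit of ribonucleotide reductase, varied most of the 37 genes (SD 0.68 on the log2 scale). It had 93.8 CPM at the lowest, 159 at the median and 489 at the highest in p107 tumors, against 111, 163 and 252 CPM in p130 tumors. The 2 tumors of mouse sgp107_6627 stood apart, at 489 CPM in sgp107_6627T1 and 401 CPM in sgp107_6627T2, and the other 6 p107 tumors lay at or below 209.5 CPM. A log2 difference of 0.29 ± 0.33 SE resulted (edgeR adjusted p = 0.766), which without that mouse was -0.33. In sgp107_6627T1 the nucleotide supply genes had a median deviation of 0.66 (log2) from their means over the 16 tumors and the licensing genes one of -0.06. Tk1, thymidine kinase of the salvage pathway, had 29.4, 41.2 and 69.8 CPM in p107 tumors, against 33.4, 37.5 and 56.6 CPM in p130 tumors (log2 fold change 0.20 ± 0.19 SE, edgeR adjusted p = 0.706). Tyms and Dut, which make thymidylate and remove dUTP, lay at 0.09 and 0.05, and Rrm1, the large reductase subunit, at 0.02. Rrm2 and Tk1 had a Pearson r of 0.88 over the tumors and Rrm1 and Rrm2 one of 0.66.

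All 6 genes for chromatin copying, histone mRNA and repair also lay above 0, with none at an unadjusted p under 0.05 in edgeR. Without mouse sgp107_6627 2 of the 6, Uhrf1 and Chaf1a, lay above 0. Uhrf1, which carries DNA methylation over to the new strand together with Dnmt1, had 149, 197 and 299 CPM in p107 tumors (lowest, median, highest), against 95.2, 169 and 232 CPM in p130 tumors. Its log2 fold change was 0.29 ± 0.19 SE (edgeR adjusted p = 0.558), and mice within a genotype held 67.3% of its sum of squares. It was 0.10 without mouse sgp107_6627, 0.06 without sgp130_6638 and 0.57 without sgp130_6637 (edgeR adjusted p = 0.367). Chaf1a, the large subunit of chromatin assembly factor 1, had the smallest spread of the 37 genes (SD 0.13 on the log2 scale), at 73.5, 89.8 and 92.5 CPM in p107 tumors, against 72.6, 77.3 and 86.3 CPM in p130 tumors. In p107 tumors 3 levels lay between 73.5 and 75.9 CPM and 5 between 88.9 and 92.5 CPM, and the log2 fold change was 0.13 ± 0.08 SE (edgeR adjusted p = 0.560). Dnmt1, the maintenance methyltransferase, lay at 0.01 (95% interval -0.26 to 0.28), Chaf1b at 0.08, Slbp, the histone mRNA binding protein, at 0.04 and Brca1, a repair gene, at 0.06.

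Across tumors the replication genes varied together. For each gene the deviation from its mean over the 16 tumors was taken on the log2(CPM + 1) scale. Over 666 gene pairs the median Pearson r was 0.41 (quartiles 0.23 and 0.57), and 608 pairs were positive. Pairs of all tested genes had a median of -0.002, and 12.3% of them exceeded the replication genes' median. Without sgp107_6627T2 the median was 0.31, and without both tumors of mouse sgp107_6627 it was 0.31. These r are descriptions over 16 tumors from 7 mice, and the genes of a pair share libraries and scaling. Chaf1b (median r of 0.60 with the other 36), Rrm1 (0.57) and Tk1 (0.55) followed the rest most closely. Orc1 (0.01) and Pola1 (-0.12) followed it least. Pola1, an X-linked gene for the catalytic subunit of polymerase alpha, was lowest (79.9 CPM) in sgp107_6627T1. In that tumor Gins1, Rrm2, Cdt1, Dut and Pola2 were highest (13.5% of the replication genes, against 15.3% of all tested genes). The share with their lowest level there was 2.70% of the replication genes and 17.2% of all tested genes. Neither share of the replication genes was above that of all genes. The Pearson r of Pola1 with Gins1 was -0.66 and with Rrm2 -0.56.

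The sum of squares of each gene was split into parts between genotypes, between mice of a genotype and between tumors of a mouse. The parts of mice and tumors hold most of the degrees of freedom. They would hold most of the sum for random values too, so only the comparison with all genes is informative. Of the sum of squares of a replication gene the median share between genotypes was 4.52%, between mice within a genotype 41.5% and between tumors of a mouse 54.7%, over 1, 5 and 9 degrees of freedom. Over all tested genes these medians were 5.22%, 41.6% and 48.0%. The median SD of a replication gene was 0.33 (log2), against 0.39 over all tested genes and 0.35 over the 10564 genes in the same range of levels.

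Single tumors stood at the ends. In sgp107_6627T2 35 of the 37 genes lay above their mean, with a median deviation of 0.48, and 18 (48.6%) had their highest level there, as did 6.08% of all tested genes. The lowest were sgp130_6638T3 (median deviation -0.31, 33 genes below their mean) and sgp107_6631T2 (-0.29, 36 below). In sgp130_6638T3 11 genes had their lowest level (29.7%, against 9.15% of all tested genes), and in sgp107_6631T2 8 genes did (21.6%, against 5.58%). The 2 tumors of mouse sgp107_6631 differed by 0.35 in median deviation and the 3 of mouse sgp130_6638 by up to 0.39. In sgp130_6637T1 Orc1, Gins2 and Rfc3 had their highest level (8.11%, against 14.1% of all tested genes), and Mcm4, Pole, Lig1, Chaf1a and Brca1 their lowest (13.5%, against 13.9%). Over tumors the median of these deviations was 0.06 in p107 and 0.07 in p130 tumors.

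**Figure D4:**
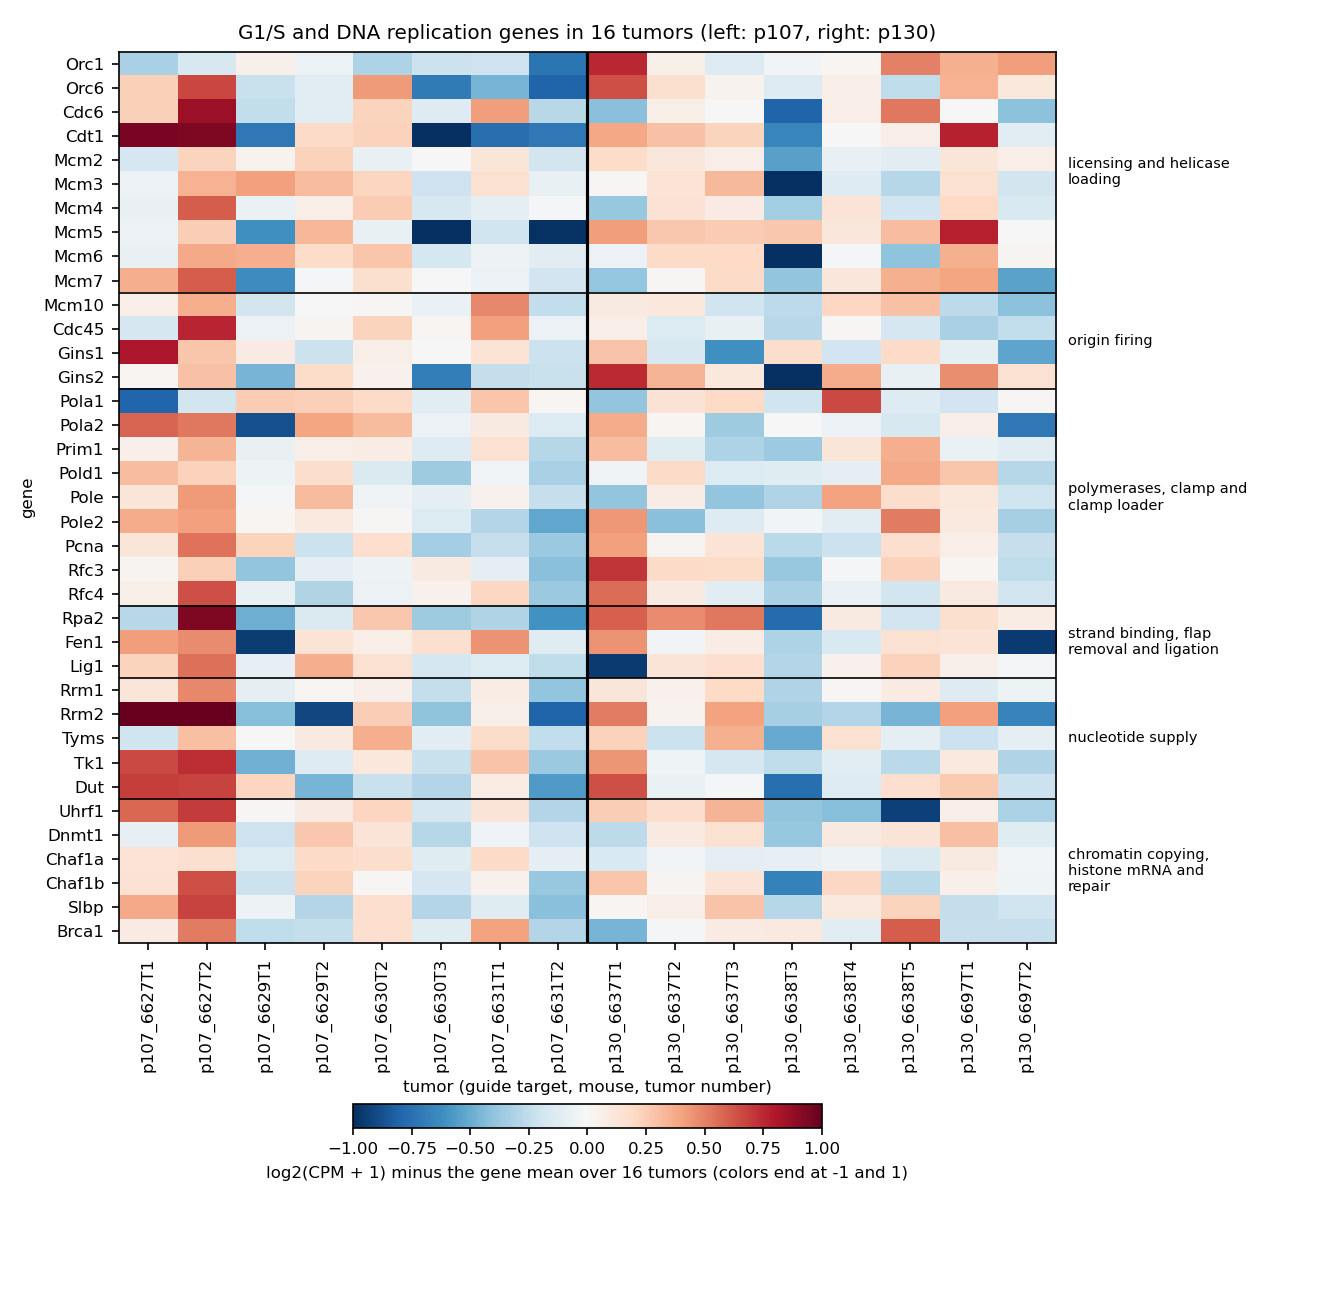
Log2(CPM + 1) of the 37 genes (rows, by role) in the 16 tumors (columns, p107 left, p130 right) minus each gene's mean, with colors ending at -1 and 1. The column of sgp107_6627T2 is high in most rows (35 of 37 above the mean), and those of sgp130_6638T3 and sgp107_6631T2 are low in most rows.

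Markers of tumor cells and other cell types also varied among the tumors. All 10 neuroendocrine markers were present in every tumor, with a summed level of 4459 to 12640 CPM for p107 and 4850 to 12725 CPM for p130, the lowest in sgp107_6627T1. Of 14 leukocyte genes 12 were tested and 10 lay above 0 in p107 tumors, and the summed level was 229 to 668 CPM for p107, with the highest in sgp107_6631T2, and 156 to 556 CPM for p130. Of 7 fibroblast genes 6 lay above 0, and the summed level was 204 to 652 CPM in p107 tumors, highest in sgp107_6627T2, and 171 to 504 CPM in p130 tumors. All 8 endothelial genes lay above 0, 5 of them with an unadjusted p under 0.05 and none with an edgeR adjusted p under 0.05, with a summed level of 128 to 243 CPM for p107 and 71.5 to 148 CPM for p130. Genes of lung epithelium summed to 322 to 8219 CPM for p107 and 186 to 2654 CPM for p130. The upper ends of these sums were mostly 1 gene, Scgb1a1, at 7711 CPM in sgp107_6630T2 and 2255 CPM in sgp130_6637T2. Globin and other red cell genes summed to 7.86 to 582 CPM for p107 and 4.06 to 50.8 CPM for p130. The share with an unadjusted p under 0.05 (edgeR) was 62.5% of endothelial, 33.3% of tested leukocyte, 14.3% of fibroblast and 100% of the 3 tested red cell genes. All of these were higher in p107 tumors. It was 0% for neuroendocrine and lung epithelium genes, and 11.8% for all tested genes. None of these marker genes had an edgeR adjusted p under 0.05. Cd3g, Hba-a1 and Hbb-b2 were at 0 in 1 tumor each, Hba-a2 in 10 and Hbb-b1 in 12. The part of these cells in the replication gene levels was not tested. In bulk RNA a smaller share of dividing cells and less RNA per dividing cell cannot be told apart.

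The replication genes were set beside mitosis genes, textbook companions of a cell dividing at the same time. Of the 34 mitosis genes 11 lay above 0 in the comparison of p107 with p130 tumors, 0 passed and 1 had an unadjusted p under 0.05 (2.94%, edgeR). Both groups of genes were high in sgp107_6627T2, where the median deviation was 0.48 for replication genes and 0.41 for mitosis genes. Both were low in sgp107_6631T2 (replication genes -0.29, mitosis genes -0.41) and in sgp130_6638T3 (replication genes -0.31, mitosis genes -0.40). Other tumors differed between them. In sgp130_6637T3 the replication genes had a median deviation of 0.08 and the mitosis genes 0.76. In sgp107_6627T1 replication genes were at 0.12 and mitosis genes at -0.30, and in sgp107_6629T2 replication genes were at 0.07 and mitosis genes at -0.44. Mki67, the proliferation marker, had 919 CPM at the lowest, 1245 at the median and 1925 at the highest in p107 tumors, against 622, 1214 and 1991 CPM in p130 tumors (log2 fold change 0.06 ± 0.22 SE, edgeR adjusted p = 0.938).

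**Figure D5:**
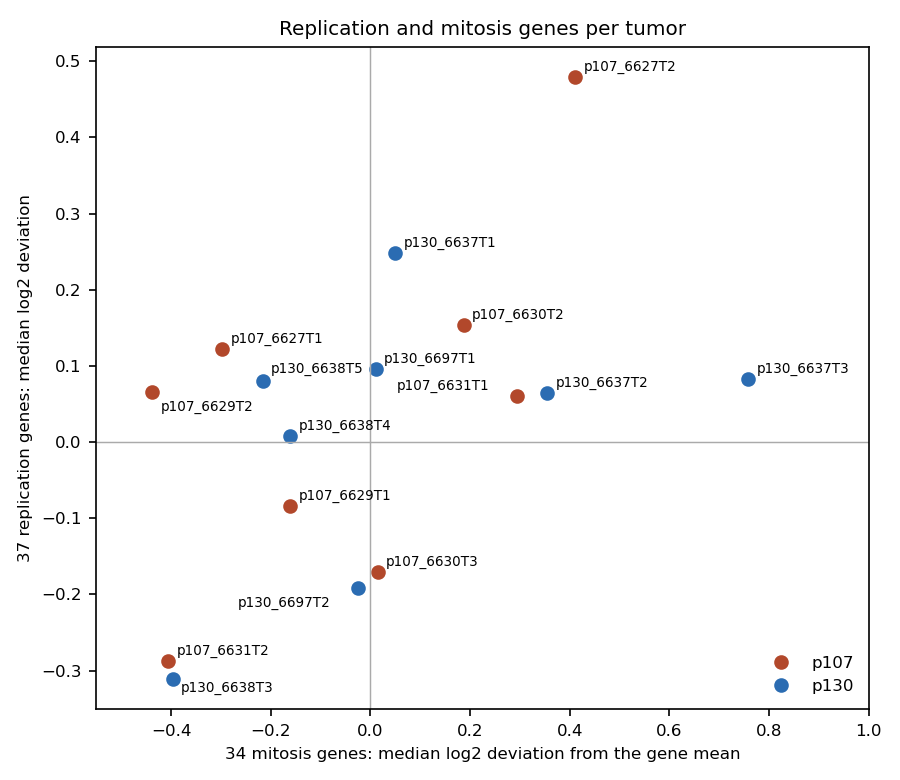
Median log2 deviation from the gene mean of 34 mitosis genes (x axis) and of the 37 replication genes (y axis) in each tumor, colored by mutated gene, p107 first. The tumor sgp130_6637T3 lies far right at 0.76 with replication genes near their mean, and sgp107_6627T2 lies highest, at 0.48.

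Other replication genes were read from a list of 56, of which 55 were tested. Of these 21 lay above 0 and 34 below, with a median log2 fold change of -0.04. In edgeR 0 passed, and 4 had an unadjusted p under 0.05 (7.27%), all lower in p107 tumors. Shmt1, a folate enzyme for thymidylate, had 11.5, 28.8 and 37.8 CPM in p107 tumors (lowest, median, highest), against 29.2, 41.8 and 64.2 CPM in p130 tumors (log2 fold change -0.64 ± 0.21 SE, edgeR adjusted p = 0.262). Rnaseh2a, a subunit of RNase H2, lay at -0.61 ± 0.23 SE (edgeR adjusted p = 0.311). Upward, Prim2, the partner of Prim1, lay at 0.32 ± 0.15 SE (edgeR adjusted p = 0.427) and Exo1, an exonuclease, at 0.30 ± 0.16 SE (edgeR adjusted p = 0.487).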

How the data were processed

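Tumor RNA was made into libraries with a KAPA mRNA kit, per the labels' protocols. The authors deposited an estimated count per gene and tumor, made with RSEM 1.2.12, Bowtie 1.0.1 and build mm9 per the submitters' processing notes. The sources used here name neither the gene annotation nor the strand setting. The second deposited table holds a normalized signal, each tumor's counts times a constant; it was read only to learn which rows it keeps, and lacks X-linked rows, Pola1 among them.

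For testing, the counts were rounded. In R 4.3.3, edgeR 4.0.16 (TMM, filterByExpr, robust quasi-likelihood F test) compared p107 minus p130 tumors, with Benjamini-Hochberg adjustment over 14857 genes and a threshold of 0.05. An SE is the log2 difference divided by the square root of F. Levels are CPM; spread and r use log2(CPM + 1). Single genes were also compared by an exact two-sided permutation test over tumors and over mice. Alternatives were DESeq2 1.42.0, counts summed per mouse, voom (limma 3.58.1) with a random mouse term (correlation 0.20), other scaling, no filter and left-out tumors or mice. The edgeR step was tested on simulated data. The labels call the tumors biological replicates, but tumors of 1 mouse are not independent.

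Members and lists were chosen with earlier results of these data known. All 37 genes are named. Full values are given for the smallest p of each role, the 3 smallest in each direction, the largest and smallest SD, and a few more genes named after their values were seen. In the annotation 12 of the 37 overlap an exon of a gene on the opposite strand, and Pcna and Tyms have named pseudogenes, so their counts are less certain. Of the rows, 25 hold dates for symbols and stayed unnamed.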

Additional observations from a re-analysis of the deposited data

Results flagged for a closer look

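In each group of 8 tumors the gap between an end tumor and its neighbor was set against the whole range. For the 37 genes, 9 of 74 groups (12.2%) exceeded the 95% critical value of Dixon's test. About 3.7 would do so by chance if the groups were independent and normally distributed. The levels were CPM without a log, and the genes varied together over the same tumors (median r 0.41). The share over all tested genes was not computed, so the count cannot be read as a trait of the replication genes. A further 22 groups, of other genes named here and of values per tumor, held 0. In p107 tumors Mcm4 was 331 CPM in sgp107_6627T2 (others 194 to 259), Rpa2 was 167 CPM in the same tumor (others 56.9 to 105), and Gins1 was 40.0 CPM in sgp107_6627T1 (others 19.1 to 27.4). In p130 tumors Rfc3 was 120.3 CPM in sgp130_6637T1 (others 55.9 to 85.7), as was Rfc4 at 79.6 CPM (others 42.7 to 57.3) and Tk1 at 56.6 CPM (others 33.4 to 44.3). Mcm5 was 289 CPM in sgp130_6697T1 (others 167 to 225), Pola1 was 221 CPM in sgp130_6638T4 (others 106 to 160) and Brca1 was 129 CPM in sgp130_6638T5 (others 61.1 to 90.8). These values fall on 6 tumors, 3 of them on sgp130_6637T1, and their cause was not tested.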

How the results depend on the processing

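The call of 0 among the 37 genes held under all alternatives run. The count of genes called over the whole table was 4 and moved: 335 in DESeq2, 1 with counts summed per mouse, 0 in voom with a random mouse term and 0 among the 10 tumors with Y-linked transcripts. It ran from 0 to 6 without single tumors, and was 1 without mouse sgp107_6627, 0 without any one of sgp107_6629, sgp107_6631, sgp130_6637 and sgp130_6638, 6 without sgp107_6630 and 10 without sgp130_6697. The count of replication genes above 0, 26, ran from 18 to 30 without single tumors, and was 16 without mouse sgp107_6627. It was 19 without sgp130_6638T3. Among 17 named genes 510 alternatives were run: 500 kept sign and call. The sign turned for Rfc3, to 0.0025 without mouse sgp130_6637 and 0.046 among tumors with Y-linked transcripts; for Tk1, to -0.062, and Rrm2, to -0.33, without mouse sgp107_6627; and for Mki67, to -0.11 without mouse sgp107_6627, -0.070 without mouse sgp130_6638, and between -0.044 and 0.20 without single tumors. Rbl2 passed in DESeq2 (adjusted p = 7.23e-05) and without sgp130_6638T4 (edgeR adjusted p = 0.0339). Over the alternatives the log2 fold change ran from 0.06 to 0.57 for Uhrf1, 0.03 to 0.24 for Lig1, 0.04 to 0.16 for Chaf1a and -0.51 to -0.16 for Gins2. The causes were not tested. The spread and r without sgp107_6627T2 and without its mouse were added after seeing the data. No paired analysis was possible because each mouse carried 1 genotype and replicate numbers only follow accession order.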
